A study of Mus musculus with 28 samples.

Results

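The transcripts described here were those of 5 genes of the erythrocyte lineage, taken by name from the 29068 gene symbols of the deposited table: Hba-a1 and Hba-a2, which encode adult alpha-globin, Hbb-bs and Hbb-bt, which encode adult beta-globin, and Alas2, which encodes the erythroid 5-aminolevulinate synthase. All 5 passed the filter on low counts, as did 18107 genes in all. They were measured by RNA-seq in skin from the wound site of wild type C57BL/6J (MLKL+/+) mice, in 28 libraries, 4 on each of days 0, 3, 5, 7, 10, 12 and 14 of natural wound healing. Per the study's methods, the mice were 8 weeks old, were anesthetized with isoflurane, and received a punch excision wound on the back that reached the fascia, and the whole wound site was taken with the scab and the epithelial margins. The earliest group is labelled day 0 and treated as the control in the labels, whereas the study's text places its first collection on day 1 and counts the day of injury as day 1. It is called day 0 here, and whether these 4 libraries hold uninjured or freshly injured skin could not be settled from the sources. The text deposited with the labels gives 5 repeats per day, while 4 libraries per day were analysed here. The labels do not say whether the 4 libraries of a day came from separate animals, so p-values measure the spread between these libraries only.

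Hemoglobin is a tetramer of alpha-globin and beta-globin chains that each carry a heme group, and it fills the cytoplasm of red blood cells. Globin genes are transcribed in nucleated erythroid precursors in the bone marrow and spleen, where the transcription factors GATA1 and KLF1 drive them, and ALAS2 catalyses the first step of heme synthesis in the same cells. Mammalian red blood cells have no nucleus, and young red blood cells (reticulocytes) carry globin mRNA left from their precursors into the circulation, so globin mRNA can reach a tissue with the blood. Hbb-bs and Hbb-bt belong to the beta-globin haplotype carried by C57BL/6 mice.

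In the mm10 build, with gene bounds from GENCODE M21, Hba-a1 lies at chr11:32283511-32284465 and Hba-a2 at chr11:32296489-32297298, both on the plus strand. Hbb-bs lies at chr7:103826534-103828096 and Hbb-bt at chr7:103812524-103813996, both on the minus strand. Alas2 lies at chrX:150547375-150570638 on the plus strand. The coding sequences of each pair are nearly identical, and the stretches below show the only coding difference of each pair. Coding reads that miss this base fit both copies. The untranslated parts of the transcripts, which reads also cover, were not compared. The sequences are from GENCODE M21 transcripts, the capital marks the differing base, and positions count from 1 at the first base of the start codon (351 to 410 for alpha-globin, 385 to 444 for beta-globin).
Hba-a1: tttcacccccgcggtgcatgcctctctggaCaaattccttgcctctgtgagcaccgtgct
Hba-a2: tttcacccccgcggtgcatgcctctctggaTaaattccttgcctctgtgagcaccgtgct
Hbb-bs: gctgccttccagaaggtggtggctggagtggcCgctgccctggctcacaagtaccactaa
Hbb-bt: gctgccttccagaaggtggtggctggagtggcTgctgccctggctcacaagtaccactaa
The alpha-globin coding sequences of 429 bases differed at 1 base (99.8% identity), with an identical run of 380 bases. The beta-globin coding sequences of 444 bases also differed at 1 base (99.8% identity), with an identical run of 416 bases. How reads that fit both copies were counted is not given in the sources used here, so the split between the members of a pair is uncertain, and the pairs were also tested as sums.

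The 250 bases before the RefSeq start were found for all 5 genes and are printed below for 4 of them. They are from the GRCm38.p6 assembly (the mm10 build), 5′ to 3′ on the strand of the gene. Capitals mark matches to 4 short motifs on either strand: GATAA, the core bound by GATA factors, CACCC, the core bound by KLF1, CCAAT and TATAA.
Hba-a1, chr11:32283422-32283671: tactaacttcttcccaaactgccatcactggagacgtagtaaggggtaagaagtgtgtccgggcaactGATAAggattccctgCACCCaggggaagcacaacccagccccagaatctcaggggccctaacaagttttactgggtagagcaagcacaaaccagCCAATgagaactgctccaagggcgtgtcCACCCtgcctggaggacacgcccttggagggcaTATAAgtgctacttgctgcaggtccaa
Hbb-bs, chr7:103827929-103828178: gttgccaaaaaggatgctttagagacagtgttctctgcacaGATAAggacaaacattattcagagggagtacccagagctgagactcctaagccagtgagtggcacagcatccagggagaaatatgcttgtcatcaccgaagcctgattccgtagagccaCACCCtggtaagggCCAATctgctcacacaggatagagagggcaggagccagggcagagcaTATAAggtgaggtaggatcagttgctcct
Hbb-bt, chr7:103813924-103814173: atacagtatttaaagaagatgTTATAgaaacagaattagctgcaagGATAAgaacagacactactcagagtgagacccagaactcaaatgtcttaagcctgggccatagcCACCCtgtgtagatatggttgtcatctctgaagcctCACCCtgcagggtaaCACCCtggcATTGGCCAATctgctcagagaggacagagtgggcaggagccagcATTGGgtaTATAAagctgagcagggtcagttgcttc
Alas2, chrX:150547167-150547416: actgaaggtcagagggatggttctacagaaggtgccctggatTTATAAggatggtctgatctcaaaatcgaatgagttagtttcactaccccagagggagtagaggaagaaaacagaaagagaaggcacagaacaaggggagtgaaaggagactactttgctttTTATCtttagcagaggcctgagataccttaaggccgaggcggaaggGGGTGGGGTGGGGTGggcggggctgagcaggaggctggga
The 4 globin promoters each held at least 1 match to all 4 motifs, and the Alas2 window held all but CCAAT. Of 32851 mouse promoter windows of the same length, 22.6% held GATAA, 52% CACCC, 33.8% CCAAT and 22.8% TATAA, and 318 (0.97%) held all 4. The TATAA match nearest the start began 27 bases before it in Hba-a1, 29 in Hbb-bs and 28 in Hbb-bt, whereas in Alas2 it began 208 bases before the start on 1 strand and 207 on the other, the only overlapping matches. The Hba-a2 window is not printed because it shares a run of 247 of 250 bases with that of Hba-a1. The promoters of Hbb-bs and Hbb-bt share no run longer than 14 bases, so their upstream sequences differ although their coding sequences hardly do. A match describes the letters of these windows and was not tested as a binding site.

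Each library held between 36706513 and 40655764 counts on genes, and the 4 globins together took between 0.0149% and 0.141% of them. Keratinocyte and fibroblast transcripts that define skin were present in all groups, with 10 of 10 tested and a summed level between 21952 and 63775 CPM (counts scaled to the library total). Transcripts of skeletal muscle were highest on day 0, with a summed level of 17754 to 31176 CPM, and their 8 genes were lower on every later day.

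All 5 genes rose between day 0 and day 3 and were high until day 7. Of these, 4 fell between day 7 and day 10, all 5 fell most between day 10 and day 12, and on day 14 no difference from day 0 passed the test. Levels are given in FPKM, the fragments scaled to the length of the gene and the total of the library, which allows genes to be compared with each other.

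Hbb-bs, the more abundant beta-globin row, had the highest level of the 5 genes. On day 0 the 4 libraries had 209, 213, 208 and 144 FPKM, and on day 3 they had 1096, 1249, 1425 and 1310 FPKM. The lowest day 3 library was thus above the highest day 0 library. On day 5 Hbb-bs stood at 959, 982, 864 and 1230 FPKM, and on day 7 at 1094, 1075, 1194 and 1254 FPKM. Days 3, 5 and 7 overlapped in their ranges. On day 10 the level was 681, 670, 788 and 740 FPKM, below all libraries of days 3, 5 and 7. It was 293, 274, 364 and 307 FPKM on day 12, and 198, 193, 235 and 201 FPKM on day 14. Day 14 overlapped with day 0, while day 12 lay above both. By mean FPKM, Hbb-bs was the gene of rank 31 among the 29068 genes on day 3, with 1270 ± 137 FPKM (SD, n = 4), and of rank 304 on day 0, with 194 ± 33.2 FPKM (SD, n = 4).

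Hbb-bt, the less abundant beta-globin row, showed the same course at a lower level. It had 35.2, 37.6, 32.7 and 22.4 FPKM on day 0, and 218, 224, 230 and 223 FPKM on day 3. The day 3 libraries lay closer together than those of any other day, with a coefficient of variation of 2.21%. On days 5 and 7 the level was 179, 170, 178 and 247 FPKM and then 196, 186, 211 and 240 FPKM. It was 131, 131, 140 and 125 FPKM on day 10. On day 12 it was 47.2, 48.5, 51.8 and 43.1 FPKM, and on day 14 35.6, 33.3, 45.9 and 35.6 FPKM. All libraries of day 12 were above those of day 0, and those of day 14 overlapped with both.

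**Figure D1:**
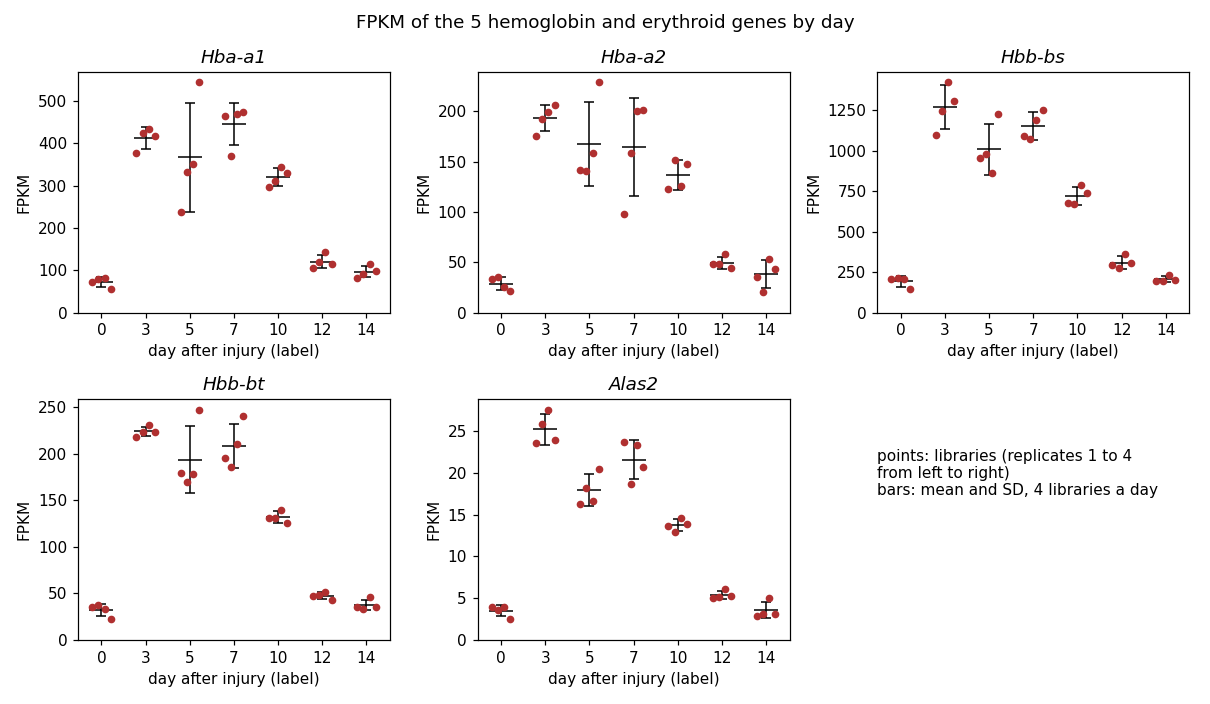
FPKM of the 5 genes (y axis, linear from 0, its own scale in each panel) by the labelled day after injury (x axis). Points are libraries, horizontal lines the mean and bars the SD of 4 libraries. In each panel all libraries of days 3, 5, 7 and 10 lie above those of days 0, 12 and 14, as with Hbb-bs, where the lowest of the former had 670 FPKM and the highest of the latter 364 FPKM.

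Hba-a1, the more abundant alpha-globin row, varied most between libraries on day 5. On day 0 it had 73.2, 79.7, 82.5 and 55.0 FPKM, and on day 3 376, 424, 433 and 417 FPKM. On day 5 it had 237, 333, 352 and 544 FPKM, so that its lowest and highest libraries among days 3 to 7 were both from that day. On day 7 it had 464, 371, 470 and 475 FPKM, and on day 10 296, 312, 344 and 329 FPKM. Its mean was highest on day 7, unlike that of the other 4 genes, which was highest on day 3, but the ranges of days 3, 5 and 7 overlapped. On day 12 it had 106, 119, 143 and 114 FPKM, and on day 14 82.1, 91.7, 114 and 99.4 FPKM. On day 14, 3 of the 4 libraries were above all of those of day 0 in FPKM, and 2 of 4 were in log2 CPM normalized for composition.

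Hba-a2, the second alpha-globin gene, had 33.3, 35.4, 25.0 and 21.6 FPKM on day 0. On day 3 it had 176, 193, 200 and 206 FPKM, and on day 5 141, 141, 159 and 229 FPKM. On day 7 its libraries spread from 98.2 through 159 and 200 to 202 FPKM. The lowest of these, replicate 1, was not the lowest of its day in any of the other 4 genes. The level was 123, 152, 125 and 148 FPKM on day 10, and 47.9, 48.1, 58.1 and 44.5 FPKM on day 12. On day 14 it was 35.6, 20.2, 53.3 and 43.6 FPKM, and these libraries reached from below the lowest to above the highest library of day 0.

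Alas2, the enzyme gene, stood far lower than the globins and followed them. It had 3.92, 3.59, 3.92 and 2.55 FPKM on day 0, and 23.6, 25.8, 27.6 and 23.9 FPKM on day 3. On days 5 and 7 it had 16.3, 18.2, 16.7 and 20.5 FPKM and then 23.6, 18.7, 23.3 and 20.7 FPKM. All libraries of day 5 were below those of day 3. On day 10 it had 13.6, 12.96, 14.6 and 13.9 FPKM, and on day 12 5.04, 5.13, 6.15 and 5.27 FPKM. On day 14 it had 2.91, 3.15, 4.98 and 3.11 FPKM, with 3 libraries inside the range of day 0 and replicate 3 above it. In counts, which set the precision, Alas2 had 189 to 311 reads per library on day 0 and 1854 to 2176 on day 3.

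To ask when the transcripts differed from the control skin, later days were set against day 0 with the quasi-likelihood test of edgeR (two-sided, Benjamini-Hochberg adjustment over 18107 genes). All 6 comparisons share the 4 day 0 libraries and are therefore not independent. On day 3 all 5 genes were higher at an adjusted p under 0.05, as were 31.8% of all genes tested. The log2 fold change was 2.77 ± 0.13 (SE, adjusted p = 1.2e-16) for Hbb-bs, a 6.82-fold difference, and 2.91 ± 0.14 (SE, adjusted p = 5.3e-16) for Alas2, a 7.49-fold difference. For Hba-a1 it was 2.56 ± 0.17, for Hba-a2 2.80 ± 0.24 and for Hbb-bt 2.86 ± 0.14 (SE, largest adjusted p = 3.6e-11). The median over the 5 genes was 2.80, and over all genes tested -0.03. A stricter call, the study's own criteria of a log2 fold change over 1.5 and an unadjusted p under 0.05, was met by all 5 genes and by 6.5% of all genes in this direction. Ranked by log2 fold change, the 5 genes stood between places 422 and 535 of 18107.

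On day 5 all 5 genes were higher (29% of all genes were), with log2 fold changes between 2.38 for Hba-a1 and 2.64 for Hbb-bt and a largest adjusted p of 2.4e-10 (edgeR). On day 7 all 5 were higher (25.6% of all genes), between 2.51 for Hba-a2 and 2.70 for Hbb-bt, with a largest adjusted p of 6.8e-10. On day 10 all 5 were higher (23.5% of all genes), between 1.84 for Hbb-bs and 2.19 for Hba-a2, with a largest adjusted p of 9.1e-09. The criteria of the study were met by all 5 genes on each of these days, and by 5.61%, 4.66% and 4.33% of all genes on days 5, 7 and 10. The differences were thus 3.58-fold or more for each gene until day 10.

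On day 12 the 5 genes were higher by a smaller amount, and 21.7% of all genes were called in that direction. The log2 fold change was 0.53 ± 0.12 for Hbb-bs (SE, adjusted p = 0.00068) and 0.43 ± 0.13 for Hbb-bt (SE, adjusted p = 0.0085). It was 0.58 ± 0.17 for Hba-a1, 0.48 ± 0.14 for Alas2 and 0.64 ± 0.23 for Hba-a2 (SE, adjusted p = 0.024 for the last). The call for Hba-a2 was lost without day 0 replicate 3, day 0 replicate 4 or day 12 replicate 3, with edgeR adjusted p of 0.060, 0.069 and 0.070. None of the 5 genes met the log2 limit of 1.5 on that day, as 3.89% of all genes did.

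On day 14 edgeR called 0 of the 5 genes higher or lower, with 28.2% of all genes called higher and 34.5% lower, and at an unadjusted p under 0.05 its count was also 0. DESeq2 called 0 of the 5 genes at an adjusted p under 0.05, with the smallest for Hba-a1 (0.080). The log2 fold change was 0.29 ± 0.17 for Hba-a1, 0.28 ± 0.23 for Hba-a2, -0.03 ± 0.12 for Hbb-bs, 0.11 ± 0.13 for Hbb-bt and -0.11 ± 0.15 for Alas2 (SE). The sign for Hbb-bs turned under 10 of 13 other settings, so no direction was read from it. Without day 14 replicate 3, which stood above the other libraries of its day in all 5 genes, Alas2 was lower than on day 0 (log2 fold change -0.34, edgeR adjusted p = 0.020). Without day 14 replicate 2, Hba-a2 was higher (log2 fold change 0.50, edgeR adjusted p = 0.040).

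**Figure D2:**
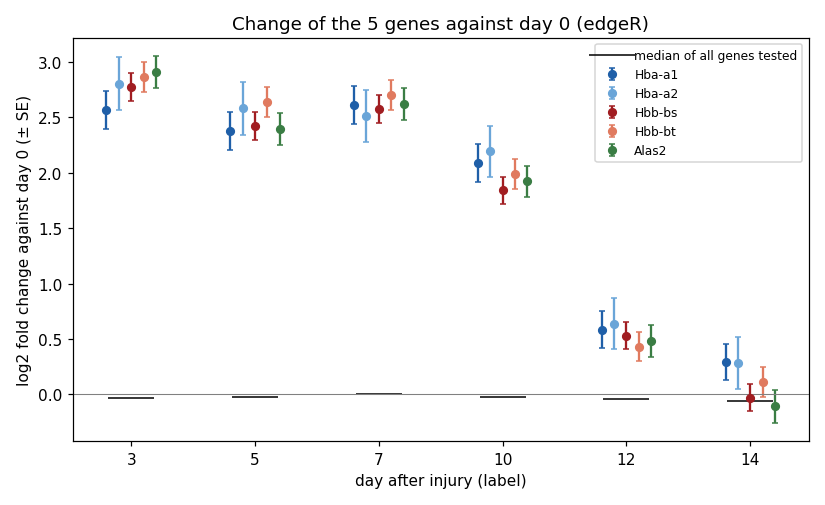
Log2 fold change against day 0 with its SE (y axis, edgeR) for the 5 genes by labelled day (x axis), with the median of all genes tested as a short line. The 5 genes lie between 2.38 and 2.91 on days 3 to 7, between 0.43 and 0.64 on day 12, and on both sides of 0 on day 14.

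In an exact permutation test of log2 CPM (two-sided, 4 libraries of a day and 4 of day 0), p was 0.0286 for every one of the 5 genes on days 3, 5, 7, 10 and 12, the smallest value that 4 against 4 can give. No library of these days overlapped with day 0 in any of the 5 genes, while 28.2%, 23%, 19.9%, 19.5% and 18.6% of all genes had all 4 libraries above day 0 on the same days. On day 14 all 5 genes overlapped with day 0, where 23.4% of all genes lay fully above, and the exact permutation p ran from 0.143 for Hba-a1 to 1 for Hbb-bs. Over the 7 days together, the adjusted p of edgeR was 1.1e-12 or smaller for each gene, and 89.5% of all genes passed that test.

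Successive days were compared to place the steps of this course. From day 3 to day 5, Hbb-bs fell by 0.35 (adjusted p = 0.035) and Alas2 fell by 0.51 (adjusted p = 0.0045) on the log2 scale in edgeR, 2 of the 5 genes, with 11.4% of all genes called lower. From day 5 to day 7, edgeR called 0 of the 5 genes in either direction (13.9% of all genes were called higher and 14.6% lower), and 0 had an unadjusted p under 0.05. From day 7 to day 10, Hbb-bs, Hbb-bt, Alas2 and Hba-a1 fell, with log2 fold changes of -0.73, -0.71, -0.70 and -0.52 and a largest edgeR adjusted p of 0.014, and 18% of all genes were called lower. Hba-a2 had a log2 fold change of -0.32 ± 0.22 (SE, edgeR adjusted p = 0.29).

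The largest fall was that from day 10 to day 12. All 5 genes fell, by between 1.31 for Hbb-bs and 1.56 for Hbb-bt on the log2 scale (largest edgeR adjusted p = 2.6e-06), whereas 20.7% of all genes were called lower. From day 12 to day 14, Hbb-bs fell by 0.56 (adjusted p = 0.00045), Alas2 by 0.59 (adjusted p = 0.0016) and Hbb-bt by 0.32 (adjusted p = 0.048) in edgeR, with 25.3% of all genes called lower. The alpha-globin genes Hba-a1 and Hba-a2 had log2 fold changes of -0.29 ± 0.16 and -0.35 ± 0.23 (SE) and did not pass the test.

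Because reads of the paralogs may be shared, the pairs were also summed before the fit. On days 3, 12 and 14 the log2 fold changes of the alpha-globin sum were 2.64 ± 0.17, 0.60 ± 0.16 and 0.29 ± 0.16 (SE), and those of the beta-globin sum 2.78 ± 0.13, 0.52 ± 0.12 and -0.01 ± 0.12 (SE). Calls of the sums on days 3 to 14 were those of the single genes. The proportions within the pairs varied less than their levels, with a coefficient of variation over all libraries of 9.78% for the ratio of Hbb-bs to Hbb-bt and 63.9% for their summed FPKM. Hba-a1 was 2.32 times as high as Hba-a2 in the median library by FPKM, and Hbb-bs 5.66 times as high as Hbb-bt, with a range of 4.85 to 7.12.

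In the alpha-globin pair, 2 libraries stood apart from the others of their day. The ratio of Hba-a1 to Hba-a2 was 4.72 in day 7 replicate 1 and 4.53 in day 14 replicate 2, while it lay between 1.68 and 3.30 in the other 26 libraries. In both libraries Hba-a2 was low and Hba-a1 was inside the range of its day. The ratio of Hbb-bs to Hbb-bt in these libraries was 5.59 and 5.80, inside the range of the other libraries.

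The ratio of the beta-globin to the alpha-globin sum in FPKM, a measure free of library totals, was 2.22 ± 0.06, 2.46 ± 0.11, 2.35 ± 0.49, 2.25 ± 0.12, 1.86 ± 0.11, 2.10 ± 0.14 and 1.83 ± 0.20 (SD, n = 4) from day 0 to day 14 in order. All libraries of day 3 were above all libraries of days 10 and 14. The day 5 libraries spread from 1.91 to 3.01, with Hba-a1 lowest in replicate 1 and highest in replicate 4. The ratio of the 4 globins to Alas2 was 83.3 ± 4.86 on day 3 and 110 ± 14.9 on day 14 (SD, n = 4), and lay between 78.3 and 122 in all libraries. These ratios were compared by their ranges only and not tested.

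**Figure D3:**
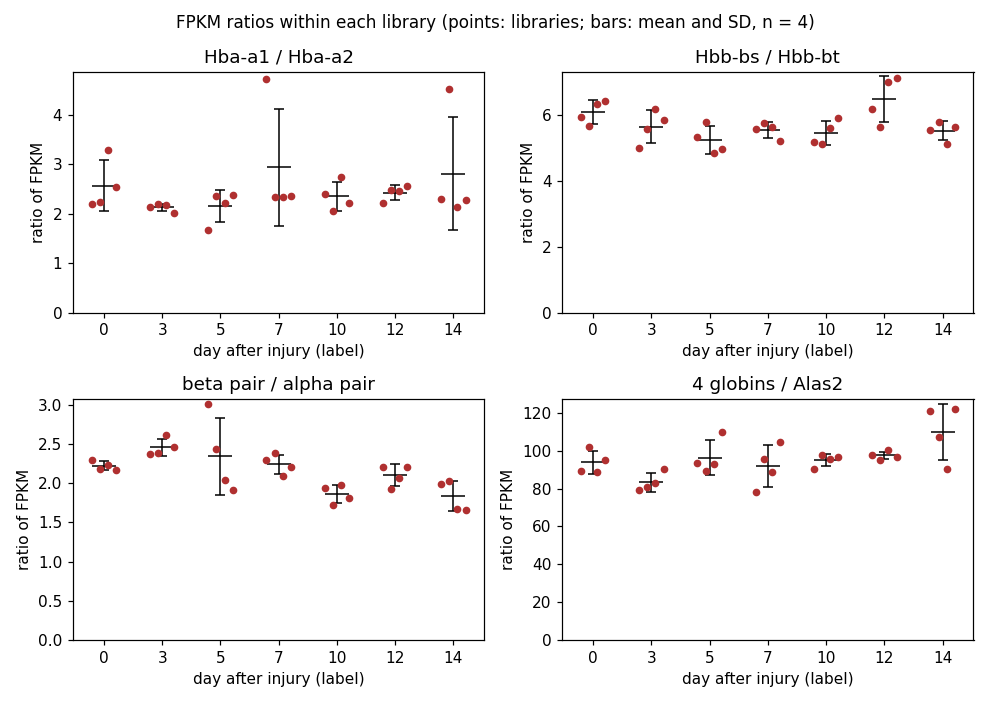
Ratios of FPKM within each library (y axes, linear from 0) by labelled day (x axis), with points for libraries and bars for the mean and SD of 4 libraries. In the alpha-globin panel a library of day 7 (4.72) and a library of day 14 (4.53) stand above all others, and the ratio of the 4 globins to Alas2 stays between 78.3 and 122.

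The members also moved together between libraries of the same day. After the mean of each day was removed from log2 CPM, the deviations of Hbb-bs were compared with those of the other genes over 28 libraries in 4 tests, with 100000 permutations within days. Pearson's r was 0.85 with Hbb-bt (permutation p = 0.00012, adjusted 0.00028; Spearman's rho 0.76, permutation p = 0.00026, adjusted 0.00035). It was 0.80 with Alas2 (permutation p = 0.00014, adjusted 0.00028; rho 0.80, permutation p = 4e-05, adjusted 0.00012), which shares no sequence with Hbb-bs. It was 0.75 with Hba-a1 (permutation p = 0.00062, adjusted 0.00062; rho 0.80, permutation p = 6e-05, adjusted 0.00012). With Hba-a2 it was 0.62 (permutation p = 0.00023, adjusted 0.00031; rho 0.59, permutation p = 0.0018, adjusted 0.0018). Without the libraries farthest from the median of Hbb-bs, day 0 replicate 4 and day 5 replicate 4, r was 0.74, 0.73, 0.64 and 0.54 in the same order. The points share the library and its normalization, and reads that fit both copies may raise the r with Hbb-bt. Genes outside the members also moved this way, such as Cldn5 and Uqcc2 (r of 0.863 and 0.845 with the mean of the members). The share of all genes with such an r was not computed.

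**Figure D4:**
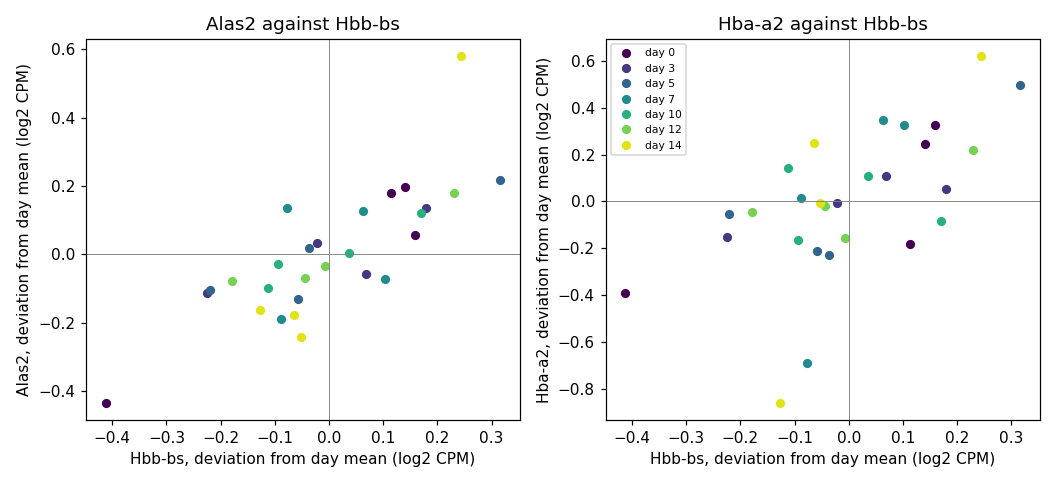
Deviation of Alas2 (left) and Hba-a2 (right) from their day mean (y axes, log2 CPM) against that of Hbb-bs (x axes, log2 CPM), with a point for each of 28 libraries coloured by day. The points of Alas2 lie along a rising band (r = 0.80), and those of Hba-a2 do so with 2 points far below it, day 7 replicate 1 and day 14 replicate 2 (r = 0.62).

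Over the whole course, Pearson's r of log2 CPM between members ran from 0.963 to 0.995 over 28 libraries, a description in which the 7 days set most of the spread. For each of the 5 genes the closest gene among all 18107 tested was another member, and for Hbb-bs and Hbb-bt this was the partner of the pair. Other genes stood between the members, such as Sprr2i for Hbb-bs, Hbb-bt and Alas2. The farthest member had rank 5 for Hba-a1 and Hba-a2, 6 for Hbb-bt, 13 for Hbb-bs and 20 for Alas2. Of the 18102 other genes, 235 (1.3%) had an r over 0.9 with the mean of the members. The 10 closest, by a rule of highest r, were Sprr2i (0.981), Klk9, Emilin1, Septin9, Efemp2, P4hb, Slc37a2, Lce3a, Rbp2 and Adamts4 (0.967). None of them is an erythroid gene by the lists used here. Sprr2i and Lce3a belong to families of cornified envelope proteins of keratinocytes, Emilin1 and Efemp2 encode elastic fibre proteins, and P4hb encodes a subunit of the prolyl hydroxylase of collagen. Emilin1, for example, had mean levels of 5.98, 26.0, 22.4, 20.4, 20.1, 10.9 and 6.94 FPKM on days 0, 3, 5, 7, 10, 12 and 14. With the day means removed, the closest genes were Cldn5, Uqcc2, Ftl1, Pdia5, Sod3, Cygb, Rhoc, Copz1, Npc2 and Fcgrt, with r between 0.81 and 0.863. Cldn5 encodes a tight junction protein of endothelial cells, and Ftl1 the light chain of ferritin.

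The embryonic globins, expressed in primitive red cells, were at or near 0. Hbb-bh1, Hbb-y and Hba-x each had 0 counts in 27 of 28 libraries and 1 count in the other, where a count of 0 allows up to 3. The theta-globins Hbq1a and Hbq1b had at most 19 and 10 counts. Of the globins of other tissues, Mb (myoglobin of muscle) had a log2 fold change of -2.55 and Cygb (cytoglobin) of -1.17 on day 3, and the 3 tested (Mb, Cygb and Ngb) were lower on day 3 and on day 5. None of these 3 was called higher on any day, and the summed level of the 8 other globin genes in the table was 364 to 529 CPM on day 0 and 85.6 to 102 CPM on day 3.

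Other genes of the erythroid lineage did not follow the 5 genes as a group. The counts cover 3 lists: erythrocyte membrane and blood group genes (summed level 280 to 357 CPM on day 0 and 165 to 176 CPM on day 3), erythroid transcription factors and receptors (238 to 248 and 203 to 218 CPM) and late erythroid and reticulocyte genes (1054 to 1162 and 1051 to 1093 CPM). Of their 49 genes, 42 were tested. On days 3, 5, 7, 10, 12 and 14, 8, 9, 13, 9, 5 and 10 were higher and 14, 12, 10, 12, 14 and 18 were lower. Of all genes tested, 31.8%, 29%, 25.6%, 23.5%, 21.7% and 28.2% were called higher on these days, and 34.5% lower on day 14. The shares of all genes called lower on days 3 to 12 are not given here. Over the 42 erythroid genes the median r with the mean of the members was -0.12. Many of them are also expressed in other cells of skin. By mean log2 CPM over all libraries, the most abundant membrane genes were Gypc, Sptb, Ank1 and Epb41, with log2 fold changes of -0.10, -2.40, -2.61 and 0.04 on day 3, of which those of Sptb and Ank1 passed the test. Sptb (beta-spectrin) and Ank1 (ankyrin) are also muscle genes, and muscle transcripts were lower on the same day. A link between these differences was not tested. The most abundant of the transcription factors and receptors were Lmo2, Ldb1, Tfrc and Zfpm1, with -0.04, -0.56, 0.16 and -0.47 on day 3, of which those of Ldb1 and Zfpm1 passed the test. The most abundant of the late erythroid genes were Aqp1, Prdx2, Bnip3l and Fech, with 0.22, 0.07, -0.27 and -0.08 on day 3, and of these 4 values those of Aqp1 and Bnip3l passed the test.

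Slc4a1, Ahsp, Rhag, Klf1, Epb42 and Gata1 were singled out after their values were seen. Slc4a1, the anion exchanger of the red cell membrane (band 3), had 54, 32, 14 and 10 counts in the day 0 libraries, 26, 15, 25 and 10 in those of day 3, and 26, 24, 29 and 40 in those of day 5. It had 106, 96, 78 and 104 counts on day 7 and 50, 46, 45 and 45 on day 10. It then had 100, 102, 108 and 93 counts on day 12 and 117, 98, 121 and 129 on day 14, when no globin differed from day 0 by the test. Its log2 fold change was -0.48 ± 0.34 on day 3 (SE, edgeR adjusted p = 0.22) and 1.95 ± 0.30 on day 14 (SE, edgeR adjusted p = 2.9e-06). It was also higher on day 7, when the globins were high, by 1.76 ± 0.30 on the log2 scale (SE, edgeR adjusted p = 2.2e-05). Ahsp, which encodes the chaperone of free alpha-globin, had 12, 0, 7 and 5 counts in the day 0 libraries, 5, 0, 3 and 1 in those of day 3, 20, 36, 29 and 35 in those of day 7, and 35, 38, 35 and 27 in those of day 14. It was higher on day 7 (log2 fold change 2.25 ± 0.56, SE, edgeR adjusted p = 0.0015) and on day 14 (2.34 ± 0.56, SE, edgeR adjusted p = 0.00072), and on the other days it did not pass the test. At the bottom of the range, Rhag had 0 counts in 26 of 28 libraries, Klf1 at most 13 counts, Epb42 at most 12 and Gata1 between 4 and 39.

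**Figure D5:**
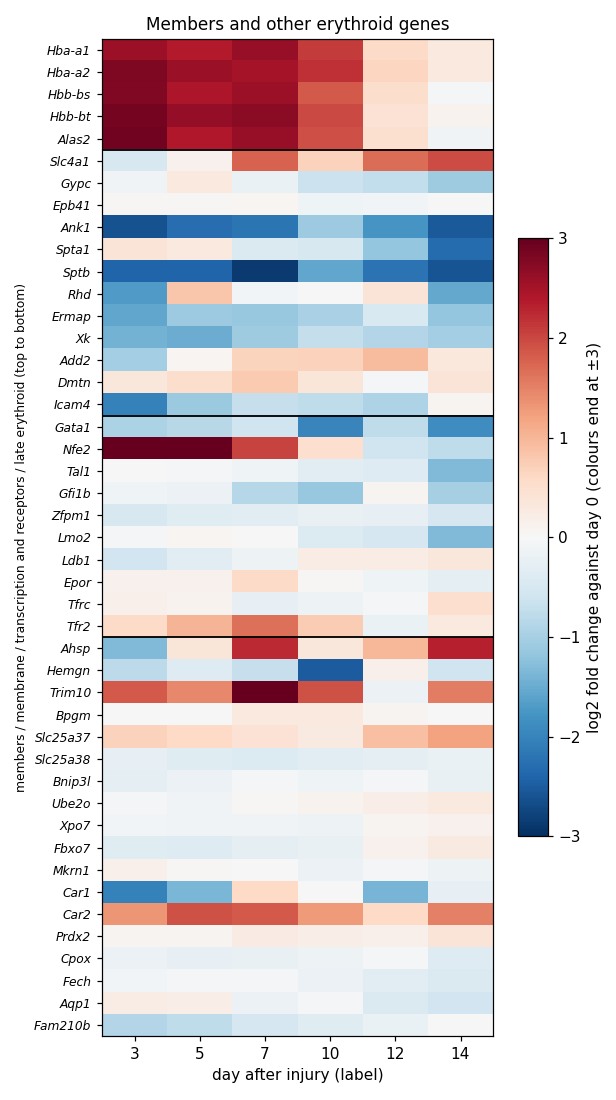
Log2 fold change against day 0 (colour, limited to 3 in either direction) for the 5 genes at the top and 40 other erythroid genes in 3 blocks, by labelled day (x axis). The 5 genes share 1 pattern, high on days 3 to 10 (median 2.80 on day 3), and most of the other genes do not.

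In the pathway of heme synthesis, whose first erythroid enzyme is ALAS2, the 10 other genes tested showed smaller differences than Alas2. On days 3, 5, 7, 10, 12 and 14, 4, 3, 1, 2, 0 and 4 were higher and 3, 3, 3, 2, 3 and 2 were lower by edgeR. The shares of all genes called higher on these days were 31.8%, 29%, 25.6%, 23.5%, 21.7% and 28.2%, and 34.5% were lower on day 14. Alas1, the form of the enzyme used in other tissues, differed on day 3 by 0.47 ± 0.11 on the log2 scale (SE, edgeR adjusted p = 0.00055), against 2.91 for Alas2. Tmem14c, a mitochondrial porphyrin carrier, had 0.94 on day 3, while Fech, which inserts the iron, and Urod had -0.08 and -0.07 and did not pass the test. Fech and Cpox also stand in the list of late erythroid genes.

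Genes that take up and break down hemoglobin and heme were higher early, at the same time as the globins. Of 14 genes, 13, 12, 10, 6, 3 and 4 were higher and 0, 0, 0, 2, 6 and 10 lower on days 3, 5, 7, 10, 12 and 14. Among all genes tested, 31.8%, 29%, 25.6%, 23.5%, 21.7% and 28.2% were higher on these days, and 34.5% lower on day 14. The summed level of the 14 genes was 17326 to 18186 CPM on day 3 and 4968 to 6014 CPM on day 0. Those with the highest mean log2 CPM over all libraries, Fth1 and Ftl1 (ferritin chains that store iron), Hp (haptoglobin, which binds free hemoglobin) and Lrp1 (a receptor for heme bound to hemopexin), had log2 fold changes of 1.36, 0.70, 3.26 and 1.46 on day 3. Hmox1, the heme oxygenase that opens the heme ring and the gene of all lists closest to the members (r = 0.96, named for that rank), had log2 fold changes of 2.68, 2.85, 2.13, 1.47, 0.50 and -0.38 on days 3, 5, 7, 10, 12 and 14. Hp and the globins parted after day 5, with 0.70 for Hp on day 7 and 0.01 on day 10. Several of these genes are also expressed by macrophages.

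Markers of other blood cells and of vessels moved with the globins on some days, and their part in the result was not tested. Of 13 neutrophil genes, 11, 10, 10 and 11 were higher on days 3, 5, 7 and 10, and 2 on day 12. The shares of all genes called higher on these 5 days were 31.8%, 29%, 25.6%, 23.5% and 21.7%. The ranges of the neutrophil sum on days 0, 3, 10 and 12 were 55.8 to 79.7, 4261 to 5259, 267 to 291 and 32.5 to 34.9 CPM, and S100a8 and S100a9 had log2 fold changes of 7.94 and 7.88 on day 3. Between days 3 and 10 the mean sum of the 4 globins went from 2100 to 1309 FPKM, a smaller relative drop than that of the neutrophil sum. Of 10 platelet genes tested, 5 were higher on day 3 and 4 on day 10, with sums of 731 to 770 and 181 to 190 CPM against 231 to 636 on day 0, and Pf4 had log2 fold changes of 1.74 on day 3 and -0.63 on day 10, and Ppbp of 6.05 and 1.94. The platelet genes of the list that were too low to be tested had at most 13 counts in any library. Of 7 B cell genes tested, 3 were higher and 4 were not called on day 3, with sums of 10.3 to 11.9 CPM against 5.07 to 7.61 on day 0. Cd22 and Cd79b had log2 fold changes of 1.90 and 0.59 on day 3. Cd79a and Blk had 0.75 and -0.07 and did not pass the test.

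Of 10 endothelial genes, 7, 7, 7, 6, 0 and 0 were higher and 2, 1, 1, 0, 6 and 5 lower on days 3, 5, 7, 10, 12 and 14. Among all genes tested, 31.8%, 29%, 25.6%, 23.5%, 21.7% and 28.2% were higher on these days, and 34.5% lower on day 14. The 2 endothelial genes lower on day 3 were Vwf and Cldn5, with log2 fold changes of -0.43 and -0.35. On days 0, 3, 10 and 12 the endothelial sum ranged over 673 to 852, 1125 to 1198, 989 to 1122 and 675 to 742 CPM. The endothelial sum was above its day 0 range until day 10 and inside it on day 12, when 6 of the 10 genes were lower and the members were still higher than on day 0. Cdh5, the cadherin of endothelial junctions, had log2 fold changes of 1.23, 1.12, 0.77, 0.78, -0.04 and 0.06, and Pecam1 of 0.70, 0.68, 0.28, 0.32, -0.35 and -0.54 on days 3 to 14. Of 8 adipocyte genes, 2 were higher and 4 lower on day 3, with sums of 6242 to 7305 CPM against 5096 to 6495 on day 0. In whole tissue, more blood or more blood-derived cells and more of these transcripts in each cell cannot be told apart.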

How the data were processed

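TRIzol-extracted total RNA of the wound site was made into libraries (VAHTS Universal V6 kit). The authors deposited unnormalized counts for 29068 gene symbols in 28 libraries (36706513 to 40655764 counts each), and FPKM values, which the authors scaled to gene length and library total: in 28721 of 28721 genes with counts the implied length differed by at most 0.001% between libraries. The submitters' processing notes name fastp, R 3.2.0 and mm10. The aligner, the counting tool, the strandedness and the treatment of reads that fit several genes are not given in the sources used here.

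edgeR 4.0.16 was used on the counts in R 4.3.3 (TMM, filterByExpr, quasi-likelihood test, 18107 genes, 1 fit of all 28 libraries, no covariates). The study's methods name DESeq2, which was run as an alternative because counts with 4 libraries per day suit either tool. P-values were adjusted over all genes tested by the Benjamini-Hochberg method, and calls used an adjusted p under 0.05. Log2 CPM used a prior count of 2, correlations used 100000 permutations within days, and p for 4 libraries against 4 came from an exact permutation test. A count of 0 allows up to 3, for counting error only. On simulated counts for day 3 against day 0 with 200 genes changed 2-fold, edgeR recovered 185 with 12 false calls among 17734 genes, limma 186 with 11 and DESeq2 186 with 20 among 18107 genes.

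The genes named were the 5 members, the 4 tested genes of each marker list with the highest mean log2 CPM (fewer are named for some lists), and the 10 genes closest to the members by Pearson's r with and without the day means. Genes named outside this rule are given as such or stand for a count, and a few genes of the lists are counted but not reported singly here. The members and the lists were chosen with earlier results of these data known. Alternatives were no composition normalization, upper quartile or DESeq2 size factors, the members left out of the library sizes, no filter or 10 counts in every library, DESeq2 1.42.0, edgeR on 8 libraries, the replicate number as a block, limma 3.58.1 on log2(FPKM + 1) or log2(FPKM + 0.1), with or without a mean FPKM of at least 1, summed pairs, the study's criteria, and each library left out in turn.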

Additional observations from a re-analysis of the deposited data

Results flagged for a closer look

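Of 63 groups of 4 libraries examined with Dixon's test (the level of each gene and 4 ratios on each day), 7 had a library that stood apart, where chance gives about 1 in 20 groups, or 3.15 of 63. In log2 CPM, Hbb-bs was 6.55 in day 0 replicate 4 against 7.08 to 7.13 in the other day 0 libraries, and Hba-a1 was 7.74 in day 7 replicate 2 against 8.05 to 8.08. Hbb-bt was 7.38 in day 5 replicate 4 against 6.80 to 6.90. Alas2 was 3.52 in day 12 replicate 3 against 3.26 to 3.30, and 3.30 in day 14 replicate 3 against 2.48 to 2.55. The ratio of Hba-a1 to Hba-a2 in FPKM was 4.72 in day 7 replicate 1 against 2.34 to 2.36, and 4.53 in day 14 replicate 2 against 2.15 to 2.30.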

How the results depend on the processing

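On days 3, 5, 7 and 10 the calls and directions of all 5 genes were kept under every alternative. On day 14 no composition normalization and limma on log2(FPKM + 0.1) or on genes with a mean FPKM of at least 1 called Hba-a1 higher, at 0.42 in each (adjusted p = 0.027, 0.047 and 0.024), so the count of members called was 1 in these 3 fits. It was 1 also without day 14 replicate 2. By the study's criteria the day 12 count was 0. The sign of Hbb-bs on day 14 turned positive with DESeq2 size factors (0.0065), upper quartile (0.016), no composition normalization (0.095), the members left out (0.049), no filter (0.0064), 8 libraries (0.041), DESeq2 (0.0066) and limma (0.109 with either pseudocount, 0.109 with the minimum FPKM). That of Alas2 turned positive with no composition normalization (0.016) and limma (0.0032, 0.0025 and 0.0032). Hbb-bt in the summed pair gave -0.0084. With a library left out, Hba-a2 ranged from 0.54 to 0.76 on day 12, and on day 14 Hba-a2 ranged from 0.056 to 0.50, Hbb-bs from -0.12 to 0.091, Hbb-bt from -0.021 to 0.24 and Alas2 from -0.34 to 0.033. The count of members called ranged from 4 to 5 on day 12 and from 0 to 1 on day 14. The cause of these changes was not tested.

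The replicate numbers did not pair the libraries: deviations from the day means had a median r of -0.00091 over 84 pairs with the same number and 0.00087 over 252 pairs with different numbers. The fit with the replicate number as a block moved Hbb-bs to 2.76 (day 3) and 0.52 (day 12) on the log2 scale and changed no call of the 5 genes. Depth limits the erythroid genes with few counts, such as Ahsp, and not the members, whose lowest value in any library was 189 counts.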
